A study of Mus musculus with 6 samples.

Results

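Expression of 10 genes that mark sprouting or tumor vessels was compared between tumor endothelial cells (ECs) of WT and Apelin-KO mice. The genes were Esm1, Plvap, Unc5b, Robo4, Mcam, Insr, Cd93, Clec14a, Emcn and Apold1. They were chosen by symbol as tip-cell and tumor endothelial surface genes, and all 10 were found among the 24346 gene symbols of the RNA-sequencing data. ECs were sorted as CD31-positive and CD45-negative cells from subcutaneous MC38 tumors, a mouse colon carcinoma cell line, at day 19 after inoculation. There were 3 samples from C57BL/6 WT mice and 3 samples from Apelin-KO mice on the C57BL/6 background, aged 8 to 10 weeks, and the labels of both groups also name saline. The knockout is constitutive and concerns the host, while the same MC38 cell line was inoculated in both groups. Whether each sample came from 1 mouse or from pooled tumors was not given in the sources used here, so the p-values measure only the spread between these samples.

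Tip cells lead a new vessel sprout towards a source of VEGF and carry guidance receptors on their surface, while the stalk cells behind them proliferate and form the lumen. Apelin itself is made by tip cells, and its receptor APJ is found on ECs of growing vessels. The 10 genes cover several roles in these vessels. Esm1 encodes endocan, a secreted proteoglycan that VEGF induces in tip cells. Unc5b is a netrin receptor and Robo4 an endothelial member of the Roundabout family, and the proteins of both genes can bind each other. Plvap forms the diaphragms that span fenestrae and caveolae. Mcam (CD146) is an adhesion molecule of the immunoglobulin superfamily that is also made by pericytes. Cd93 and Clec14a belong to the same small family of C-type lectin-like transmembrane proteins. Emcn is a sialomucin of capillary and venous ECs, Insr is the insulin receptor, and Apold1 is an endothelial gene that is induced rapidly by stress. Esm1 is thus secreted, and the name of the group as surface genes does not cover it.

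The files give FPKM, in which read numbers are scaled to the length of the transcript and to the mapped reads of the sample. Between 14089 and 14621 genes per sample were above 0, and the depth estimated from the step that a single read makes in low FPKM was between 9000000 and 10260000 reads per sample. The member with the fewest estimated reads in a sample was Clec14a with 937, for which counting error alone is 3.27%, and the member with the most was Plvap with 36627. Apln, the targeted gene, was 432, 435 and 504 FPKM in WT 1, 2 and 3 and 9.96, 17.5 and 24.3 FPKM in Apelin-KO 1, 2 and 3 (log2 difference -4.73, standard error 0.29, adjusted p = 0.00747 from limma). As to the endothelial label, each of 15 endothelial identity markers was at or above 9.02 FPKM in every sample, while Ptprc, which encodes CD45, was between 0.043 and 4.84 FPKM. The summed level of 20 hematopoietic markers was 442 to 1311 FPKM in WT and 181 to 546 FPKM in Apelin-KO samples. WT 1 and WT 2 had the highest hematopoietic sums, 857 and 1311 FPKM, and the lowest endothelial sums, 5035 and 4834 FPKM, against 5642 to 6001 FPKM in the other samples. In sorted bulk samples, fewer cells of a type and less RNA per cell cannot be told apart.

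For 7 of the 10 genes, the bases before the transcription start were at hand in RefSeq sequences of GRCm38.p6, the same assembly as the mm10 build of the reads. Plvap, Insr and Cd93 were not among them. The promoters of Clec14a and Robo4 are shown because these genes had the largest differences between the genotypes among the 7, and that of Apold1 because of its TATA box letters. The windows are the 250 bases before the start that RefSeq gives, read 5′ to 3′ on the strand of the gene, chr9:37401722-37401971 (plus strand) for Robo4, chr12:58269259-58269508 (minus strand) for Clec14a and chr6:134981751-134982000 (plus strand) for Apold1. The RefSeq start lies 75, 32 and 283 bases downstream of the first base of the GENCODE gene for Robo4, Clec14a and Apold1, so that the window of Apold1 lies within the GENCODE gene and the other two overlap it in part. Capitals mark AGGAAG or CGGAAG, letters of ETS family sites, on either strand, and TATAAA in Apold1.
Robo4: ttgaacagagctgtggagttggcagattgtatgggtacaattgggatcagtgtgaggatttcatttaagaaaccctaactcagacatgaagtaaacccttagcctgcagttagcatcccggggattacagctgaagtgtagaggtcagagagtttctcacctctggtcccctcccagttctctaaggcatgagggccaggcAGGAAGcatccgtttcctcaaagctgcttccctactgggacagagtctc
Clec14a: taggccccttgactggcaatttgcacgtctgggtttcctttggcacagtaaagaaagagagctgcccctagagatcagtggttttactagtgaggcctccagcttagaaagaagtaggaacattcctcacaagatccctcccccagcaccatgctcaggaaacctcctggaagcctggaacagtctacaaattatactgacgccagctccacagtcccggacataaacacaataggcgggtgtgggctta
Apold1: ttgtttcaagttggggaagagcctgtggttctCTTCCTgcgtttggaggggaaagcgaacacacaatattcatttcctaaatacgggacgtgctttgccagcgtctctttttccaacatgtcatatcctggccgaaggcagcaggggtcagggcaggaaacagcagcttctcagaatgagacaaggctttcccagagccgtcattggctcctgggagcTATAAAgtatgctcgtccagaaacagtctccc
The ETS letters were found in 3 of the 7 windows, those of Robo4, Emcn and Apold1, and in 39.3% of all 32536 mouse promoter windows of the same length. TATAAA on either strand was found in Apold1 alone of the 7, starting 32 bases before the RefSeq start and thus downstream of the GENCODE start, and in 12.3% of all windows. ACGTG, the core letters of hypoxia response elements, was found on either strand in 2 of the 7 windows, those of Clec14a and Apold1, and in 16.7% of all windows. GTAAACA, letters of FOX family sites, was found in 0 of the 7 windows and in 3.17% of all windows. ACGTG and GTAAACA are not marked by capitals, no matches of different motifs overlapped in the windows shown, and a match is not evidence of binding.

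The 10 genes differed 67.2-fold in their mean level per length, from Plvap with 1889.7 FPKM to Unc5b with 28.1 FPKM. After Plvap came Esm1 (578 FPKM), Mcam (511 FPKM), Emcn (494 FPKM), Cd93 (372 FPKM), Robo4 (223 FPKM), Apold1 (91.6 FPKM), Clec14a (37.3 FPKM), Insr (35 FPKM) and Unc5b. Plvap alone gave 44.4% of the summed FPKM of the 10 genes and lay above Esm1 in each of the 6 samples, by 2.68-fold to 4.38-fold. The order was not fixed for Esm1 over Mcam, which held in 4 of 6 samples, for Mcam over Emcn, which held in 5 of 6, and for Clec14a over Insr, which held in 2 of 6. All other neighbours in this order kept it in each of the 6 samples. Plvap stood above 99.9% of the 10964 genes tested by mean level, and Unc5b, the lowest of the 10, above 72.3%. Of all FPKM in a sample, the 10 genes took 0.724% to 0.901%.

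**Figure D1:**
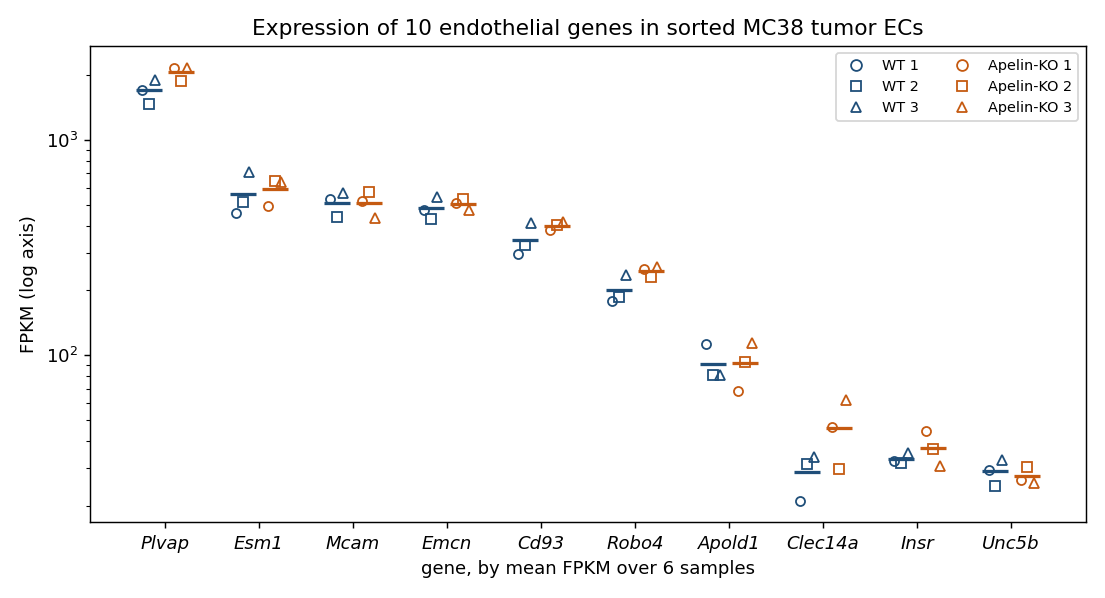
FPKM of the 10 genes on a log axis in each of the 6 samples, with genes ordered by mean level. Each symbol is a sample, and the bars are group means (n = 3). Levels span from Plvap near 1889.7 FPKM to Unc5b near 28.1 FPKM, and WT and Apelin-KO symbols overlap for each gene.

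To see whether loss of Apelin altered these genes, Apelin-KO samples were compared with WT samples by limma on log2(FPKM + 1) over the 10964 genes whose mean reached 1 FPKM. All 10 genes passed this filter. None of them was called at an adjusted p-value under 0.05, where 0.00912% of all genes tested, Apln alone, were called. At an unadjusted p-value under 0.05, 0 of the 10 genes were higher and 0 lower in Apelin-KO ECs, against 4.25% and 5.17% of all genes. The groups overlapped for each of the 10 genes, while all Apelin-KO samples lay above all WT samples in 7.77% of all genes and below them in 6.61%. The mean of log2(FPKM + 1) was higher in Apelin-KO ECs for 7 genes and lower for 3. For Apold1, 1 of these 3, the mean FPKM was slightly higher in Apelin-KO ECs (91.8 against 91.4). The median log2 difference was 0.13 over the 10 genes and 0.01 over all genes tested. When each sample was left out in turn, the median over the 10 genes ranged from 0.088 (without WT 2) to 0.24 (without WT 3). No 95% interval of a difference left out 0, and the highest upper bound was 2.47-fold, for Clec14a. The counts of 0 at an unadjusted p and of 0 without overlap depended on single samples. Without WT 3, 3 genes (Plvap, Robo4 and Cd93) were higher in Apelin-KO ECs at an unadjusted p-value under 0.05, against 11.2% of all genes in either direction, and the same 3 genes lay higher in Apelin-KO samples with no overlap, as did 15.8% of all genes. Without Apelin-KO 2, 2 genes (Plvap and Clec14a) were higher at that threshold, against 10.6% of all genes in either direction, and Plvap, Robo4 and Clec14a lay higher with no overlap, as did 14.9% of all genes. Without Apelin-KO 3, Insr alone lay higher with no overlap, against 12.2% of all genes.

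**Figure D2:**
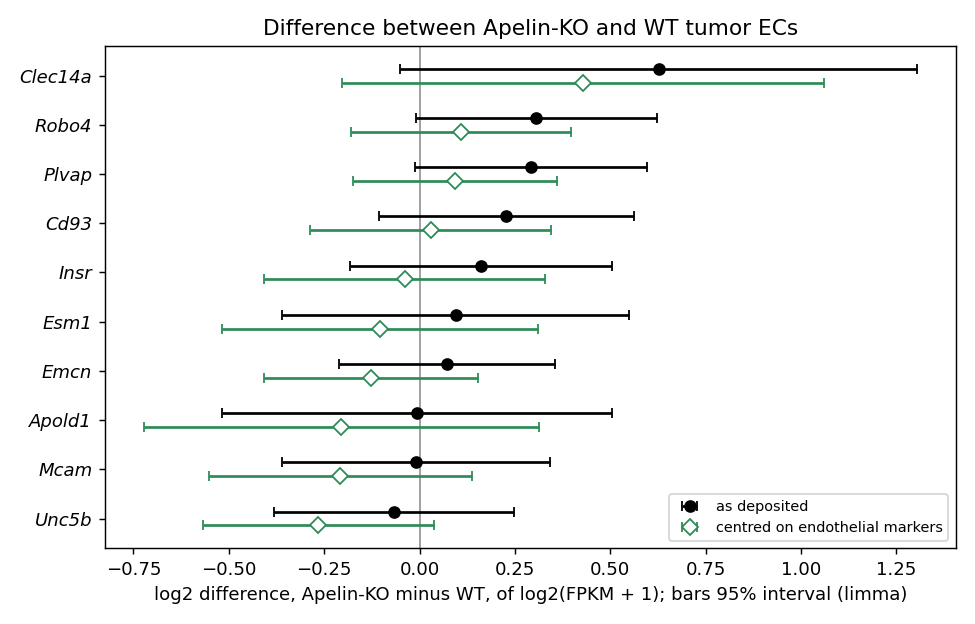
Log2 difference, Apelin-KO minus WT, of log2(FPKM + 1) for each gene, with 95% intervals from limma. Black circles are values as deposited, and green diamonds are values after each sample was centred on its mean log2 level of 15 endothelial markers. All intervals include 0, and the green diamonds lie lower by the same shift for each gene.

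Among the tip-cell genes, Esm1 has 3 exons at chr13:113209659-113218098 of GRCm38 (plus strand). It was 456, 516 and 713 FPKM in WT 1, 2 and 3 and 496, 643 and 642 FPKM in Apelin-KO 1, 2 and 3. WT 3 was the highest and WT 1 the lowest of all 6 samples, so that the WT group enclosed the Apelin-KO group. The means were 562 ± 134 FPKM (SD, n = 3) and 593 ± 84.3 FPKM (SD, n = 3), a log2 difference of 0.09 (standard error 0.19, 95% interval -0.36 to 0.55, adjusted p = 0.901 from limma). Its mean turned lower in Apelin-KO ECs without WT 1, by a log2 difference of -0.04.

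Unc5b, the netrin receptor, has 17 exons in its longest transcript at chr10:60762593-60831581 (minus strand). Its values were 29.2, 24.7 and 32.6 FPKM in WT 1, 2 and 3 and 26.4, 30.3 and 25.5 FPKM in Apelin-KO 1, 2 and 3. All Apelin-KO samples lay within the WT range. The log2 difference was -0.07 (standard error 0.13, 95% interval -0.38 to 0.25, adjusted p = 0.899 from limma). It was the only 1 of the 10 genes with no overlap after centring on the endothelial markers, where all Apelin-KO samples lay below all WT samples, with a log2 difference of -0.27 (standard error 0.13, adjusted p = 0.339 from limma). After this centring, which moved the median log2 difference of all genes to -0.19, 22.6% of all genes tested had all Apelin-KO samples below all WT samples.

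Robo4, at chr9:37401897-37415115 (plus strand), was 179, 186 and 237 FPKM in WT 1, 2 and 3. In Apelin-KO 1, 2 and 3 it was 251, 231 and 257 FPKM. WT 3 lay above Apelin-KO 2, and WT 1 and WT 2 were the 2 lowest samples. The means were 200.4 ± 31.7 FPKM (SD, n = 3) and 246 ± 13.4 FPKM (SD, n = 3), a fold of 1.24 with a log2 difference of 0.31 (standard error 0.13, 95% interval -0.01 to 0.62, adjusted p = 0.529 from limma). Its exact permutation p was 0.2 (two-sided), where 3 against 3 allows no value below 0.1.

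Plvap, the diaphragm protein of fenestrae, has 6 exons at chr8:71497765-71511752 (minus strand). It was 1717, 1479 and 1911 FPKM in WT 1, 2 and 3 and 2174, 1889.6 and 2168 FPKM in Apelin-KO 1, 2 and 3. As for Robo4, the groups overlapped only through WT 3 and Apelin-KO 2. The means were 1702 ± 217 FPKM (SD, n = 3) for WT and 2077 ± 163 FPKM (SD, n = 3) for Apelin-KO, a fold of 1.22 with a log2 difference of 0.29 (standard error 0.13, 95% interval -0.01 to 0.60, adjusted p = 0.532 from limma, exact permutation p = 0.2).

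Cd93 and Clec14a, the C-type lectin-like pair, lie at chr2:148436640-148443563 and chr12:58264720-58269290, both on the minus strand. Clec14a is annotated as a single exon, and Cd93 has 2 exons. Cd93 was 295, 327 and 412 FPKM in WT 1, 2 and 3 and 381, 403 and 416 FPKM in Apelin-KO 1, 2 and 3. WT 3 again lay within the Apelin-KO range, and WT 1 and WT 2 were the lowest. The log2 difference of Cd93 was 0.23 (standard error 0.14, 95% interval -0.11 to 0.56, adjusted p = 0.643 from limma). Clec14a was lower, at 21.1, 31.1 and 33.8 FPKM in WT 1, 2 and 3 and 46.3, 29.7 and 61.8 FPKM in Apelin-KO 1, 2 and 3. Apelin-KO 1 and 3 lay above all WT samples and Apelin-KO 2 below WT 2 and WT 3. Clec14a had the largest mean difference of the 10 genes, a fold of 1.54 with a log2 difference of 0.63, and also the widest interval (standard error 0.29, 95% interval -0.05 to 1.30, adjusted p = 0.542 from limma). It was 0.39 without Apelin-KO 3 and 0.90 without Apelin-KO 2. Its coefficient of variation was 35% among Apelin-KO samples, the highest of the 10 genes, against 4.45% for Cd93, the lowest.

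Mcam and Emcn, surface glycoproteins of ECs, were nearly level between the genotypes. Mcam, at chr9:44134469-44142727 (plus strand), was 535, 438 and 566 FPKM in WT 1, 2 and 3 and 522, 571 and 436 FPKM in Apelin-KO 1, 2 and 3. Both groups spanned the same range. Its log2 difference was -0.01 (standard error 0.15, 95% interval -0.36 to 0.34, adjusted p = 0.991 from limma). An exon of Gm10687 on the opposite strand overlaps Mcam, and whether the counting used strand was not given in the sources used here. Emcn, at chr3:137341067-137432185 (plus strand), was 474, 431 and 544 FPKM in WT 1, 2 and 3 and 511, 533 and 473 FPKM in Apelin-KO 1, 2 and 3. All Apelin-KO samples lay between WT 2 and WT 3. The log2 difference of Emcn was 0.07 (standard error 0.12, 95% interval -0.21 to 0.35, adjusted p = 0.877 from limma), the narrowest interval of the 10 genes.

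Insr, the insulin receptor, has 21 exons in its longest transcript at chr8:3122061-3279617 (minus strand). WT samples were close together at 32.1, 31.4 and 35 FPKM in WT 1, 2 and 3, whereas Apelin-KO 1, 2 and 3 were 44.2, 36.6 and 30.7 FPKM. The Apelin-KO group held both the highest and the lowest sample. The coefficient of variation was 5.77% in WT and 18.2% in Apelin-KO ECs. The log2 difference was 0.16 (standard error 0.15, 95% interval -0.18 to 0.50, adjusted p = 0.752 from limma), and it was 0.03 without Apelin-KO 1 and 0.29 without Apelin-KO 3.

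Apold1, at chr6:134981718-134986836 (plus strand), was 112, 80.8 and 80.9 FPKM in WT 1, 2 and 3 and 68.5, 92.7 and 114 FPKM in Apelin-KO 1, 2 and 3. The samples split within each genotype rather than between them. The log2 difference was -0.01 (standard error 0.22, 95% interval -0.52 to 0.51, adjusted p = 0.996 from limma), and it turned positive without WT 1 or without Apelin-KO 1. The summed level of 20 immediate early genes that respond to tissue dissociation, such as Fos and Dusp1, was 2636, 2001 and 2298 FPKM in WT 1, 2 and 3 and 2187, 2769 and 3562 FPKM in Apelin-KO 1, 2 and 3. WT 1, Apelin-KO 2 and Apelin-KO 3 were thus the 3 highest samples both for Apold1 and for this sum, with Apelin-KO 3 the highest for both. The part of dissociation in the level of Apold1 was not tested.

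Across samples, WT 1 and WT 2 were low for many of the 10 genes. In 7 of the 10 genes the lowest value was that of WT 1 or WT 2, and no gene had its highest value there. WT 3 held the highest value of 3 genes (Esm1, Unc5b and Emcn) and lay above the median of the 6 samples for 9 genes. The median log2 deviation of the 10 genes from their own means was -0.12, -0.17 and 0.12 in WT samples 1, 2 and 3 and 0.05, 0.09 and 0.17 in Apelin-KO 1, 2 and 3. WT 1 and WT 2 were also lowest for the endothelial marker sum and highest for the hematopoietic marker sum. After each sample was centred on its mean log2 level of the endothelial markers, the median over the 10 genes was -0.07 and that over all genes -0.19. Then 4 of the 10 genes (Clec14a, Robo4, Plvap and Cd93) had higher and 6 had lower means in Apelin-KO ECs, with adjusted p-values of 0.339 to 0.902 by limma. The part of the cell content of the samples in the values was not tested.

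**Figure D3:**
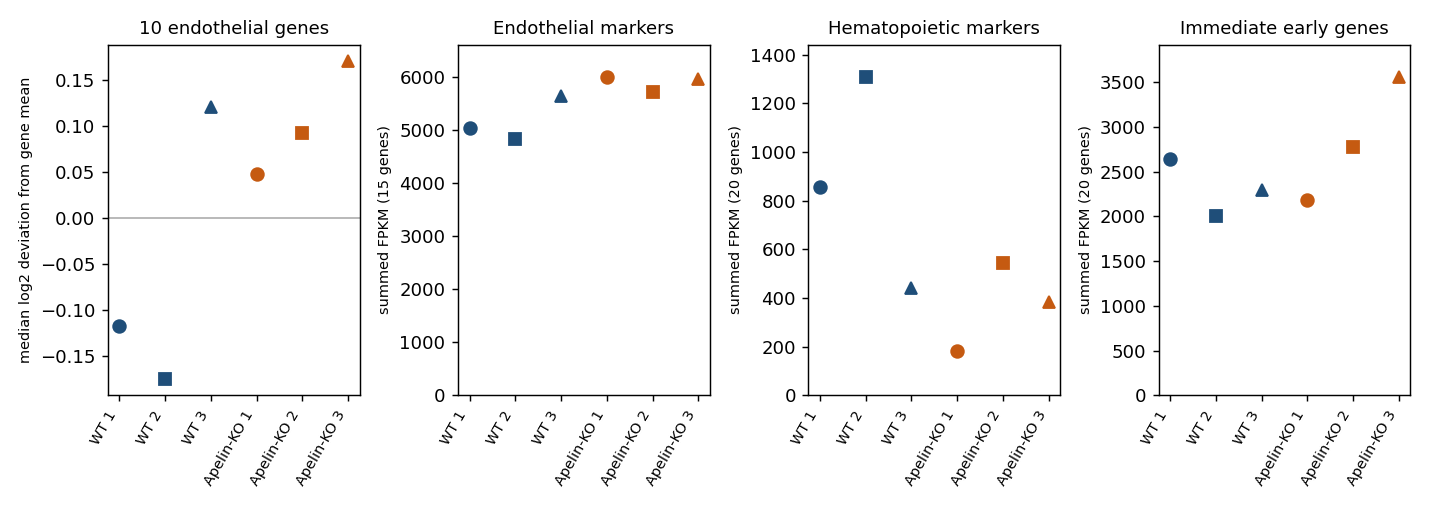
Per-sample values of the 10 genes (median log2 deviation from each gene's mean over the 6 samples) and summed FPKM of 15 endothelial identity markers, 20 hematopoietic markers and 20 immediate early genes. Each symbol is a sample. WT 1 and WT 2 are lowest for the 10 genes and for the endothelial markers and highest for the hematopoietic markers.

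Ratios between genes of a sample do not depend on how that sample was scaled. The 6 ratios computed were chosen after the values had been seen and were not tested. How many of all gene pairs have ratios without overlap was not computed. Among single genes tested, all Apelin-KO samples lay above all WT samples in 7.77% and below them in 6.61%. Robo4 relative to Unc5b was 6.11, 7.52 and 7.26 in WT samples 1, 2 and 3 and 9.51, 7.63 and 10.1 in Apelin-KO 1, 2 and 3. This ratio was higher in each Apelin-KO sample than in each WT sample, although the gap between WT 2 and Apelin-KO 2 was small. Mcam relative to Lama4, which encodes a chain of its ligand laminin 411, was 2.48, 2.44 and 2.37 in WT samples 1, 2 and 3 and 2.19, 2.11 and 1.99 in Apelin-KO 1, 2 and 3. It was lower in each Apelin-KO sample. The ratios of Cd93 to Clec14a, of Insr to Igf1r, of Plvap to Cav1 and of Cd93 to its ligand Mmrn2 overlapped between the genotypes. Insr relative to Igf1r ranged from 9.14 to 9.91 in WT and from 4.08 to 10.3 in Apelin-KO ECs.

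**Figure D4:**
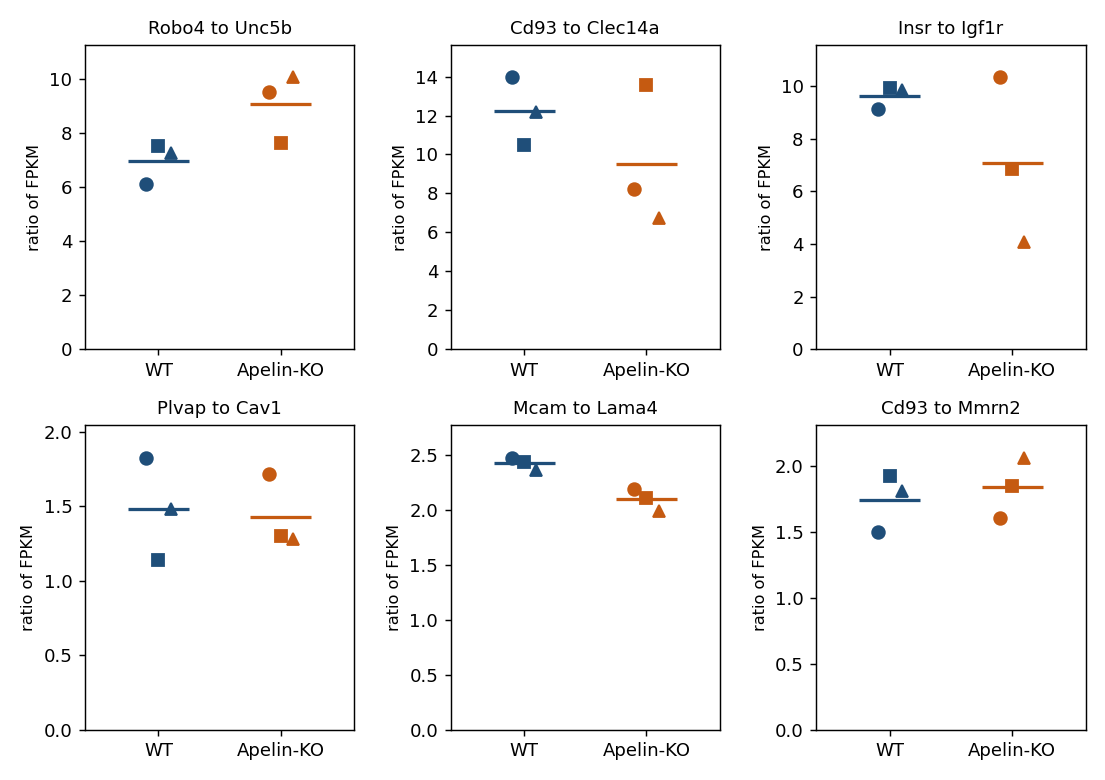
Ratio of FPKM of gene pairs in each sample, with bars at group means (n = 3) and axes from 0. Robo4 to Unc5b (6.11 to 7.52 in WT, 7.63 to 10.1 in Apelin-KO) and Mcam to Lama4 (2.37 to 2.48 in WT, 1.99 to 2.19 in Apelin-KO) do not overlap, and the other ratios do. The pairs were chosen after the values had been seen.

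Other genes of these pathways were counted from lists written with earlier results of these data known. Of 31 ligands, partners and relatives of the 10 genes, 21 passed the filter and 0 had an adjusted p-value under 0.05 (lowest 0.501 by limma). At an unadjusted p-value under 0.05, 3 were higher in Apelin-KO ECs and 2 lower, where 4.25% of all genes tested were higher and 5.17% lower. The median log2 difference was 0.10 over the 21 genes. The 3 higher genes were Igf1r, the IGF-1 receptor and closest relative of Insr (log2 difference 0.58, standard error 0.18), and Cavin1 and Cavin2 (0.36 and 0.49), which coat caveolae and are listed in the files under the older symbols Ptrf and Sdpr. Igf1r was 3.52, 3.17 and 3.56 FPKM in WT 1, 2 and 3 and 4.28, 5.35 and 7.54 FPKM in Apelin-KO 1, 2 and 3, so that the groups did not overlap. It was 1 of 4 of the 21 genes with all Apelin-KO samples above all WT samples, against 7.77% of all genes tested. For 1 of the 21 they all lay below, against 6.61%. The 2 lower genes were Flrt2 (-0.54) and Flrt3 (-0.82), transmembrane ligands of Unc5 receptors, both at mean levels under 5 FPKM.

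The shared ligand of Cd93 and Clec14a, Mmrn2, had a mean of 208 FPKM and a log2 difference of 0.15 (adjusted p = 0.751 from limma). Igfbp7, another ligand of Cd93, was far more abundant with 3257 FPKM and a log2 difference of 0.26 (adjusted p = 0.550 from limma). Thbd, a relative of Cd93, had 68.5 FPKM, and Cd248, another relative, 6.72 FPKM, with log2 differences of 0.02 and 0.11. Cav1, the main caveolar protein, had 1323 FPKM and a difference of 0.33, Lama4 227 FPKM and 0.20, and the sialomucins Cd34 and Podxl 858 and 161 FPKM with 0.16 and 0.04. Of the secreted ligands of guidance receptors on the list, Ntn1, a ligand of Unc5b named after its value was seen, had 5.22 FPKM and a log2 difference of -0.22. Ntn4 had 2.26 FPKM and a log2 difference of -0.08, and Slit2 and Slit3 0.376 and 0.123 FPKM, below the filter. The insulin receptor substrates Irs1 and Irs2 had 0.361 and 0.558 FPKM and were not tested either.

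All 21 other tip-cell genes passed the filter, with a median log2 difference of 0.13. Means of log2(FPKM + 1) were higher in Apelin-KO ECs for 18 of them, among them Flt4 at 0.0006. So were those of 13 of 15 endothelial identity markers, and the share of all genes tested was not counted. None of the 21 tip-cell genes had an adjusted p-value under 0.05 (lowest 0.515 by limma). At an unadjusted p-value under 0.05, 2 were higher, where 4.25% of all genes tested were. These were the basement membrane gene Nid1 (0.26) and the actin-bundling gene Fscn1 (0.36). The VEGF receptor Kdr (log2 difference 0.13), its co-receptor Nrp1 (-0.02), Flt4 (0.00), the Notch ligand Dll4 (0.12) and the Tie2 ligand Angpt2 (0.06) had means above 100 FPKM and missed this threshold. So did the basement membrane genes Col4a1 (0.36), Col4a2 (0.32), Lamb1 (0.17) and Nid2 (0.08), of which Col4a1 alone had no overlap between the genotypes. Of all 21 tip-cell genes, 3 had all Apelin-KO samples above all WT samples, against 7.77% of all genes tested. The other tip-cell genes above 100 FPKM were Igfbp3 (0.08), Adm (0.60), Kcne3 (-0.04) and Cd34, which is also among the partners, and they missed the threshold too. Of 9 other tumor endothelial markers, 7 passed the filter and 0 had an unadjusted p-value under 0.05. Among these, Sparc, Aplnr and Cd276 had the highest levels with 4037, 386 and 196 FPKM and log2 differences of 0.25, 0.13 and -0.01. Aplnr encodes APJ, the receptor of Apelin.

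The 15 endothelial identity markers had a median log2 difference of 0.21, and 4 of them (Pecam1, Cdh5, Tie1 and Vwf) were higher in Apelin-KO ECs at an unadjusted p-value under 0.05, against 4.25% of all genes tested. The median of 0.13 over the 10 genes lay below that of these general markers and above the 0.01 of all genes tested. It ranged from 0.088 to 0.24 when a sample was left out, and the median of the markers was not recomputed there. Among markers of other cells, 9 of 17 hematopoietic and 5 of 9 fibroblast markers that passed the filter were lower, and 3 of 10 pericyte markers (Rgs5, Ndufa4l2 and Higd1b) higher, in Apelin-KO ECs at an unadjusted p-value under 0.05, against 5.17% lower and 4.25% higher among all genes tested. Of the 10 tested pericyte markers, 2 had lower mean log2 levels in Apelin-KO ECs, Cspg4 (-0.355) and Tagln (-0.303). Ndufa4l2 and Higd1b had low means of 1.84 and 4.39 FPKM. The pericyte sum was 151 to 188 FPKM in WT and 201 to 227 FPKM in Apelin-KO samples, given because pericytes also make Mcam. Most of this sum came from Kcnj8 and Abcc9, with means of 85.5 and 69.1 FPKM, while Pdgfrb, Rgs5 and Cspg4 had 6.69, 5.61 and 2.09 FPKM. The fibroblast sum was 205 to 358 FPKM in WT and 138 to 213 FPKM in Apelin-KO samples, and the sum of 15 tumor epithelial markers was 14.1 to 16.7 and 11.4 to 17.3 FPKM. Nearly all of the epithelial sum was Tspan8, at 10.3 to 16.3 FPKM, while the other markers reached at most 1.48 FPKM (Vil1), and Cldn3 and Cdx2 were listed at 0 in all samples. The lymphatic endothelial sum was 193 to 443 FPKM in WT and 182 to 294 FPKM in Apelin-KO samples. The part of these cells in the levels of the 10 genes was not tested.

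**Figure D5:**
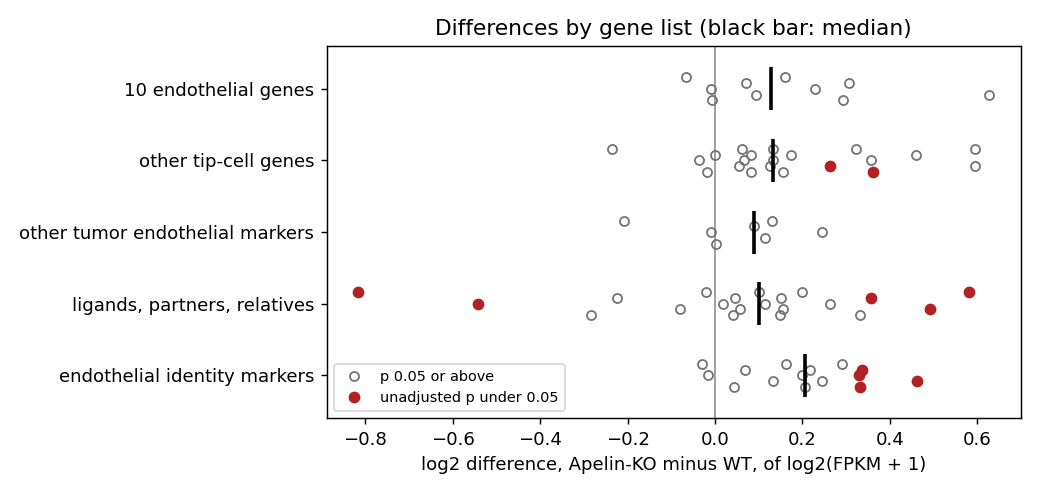
Log2 difference, Apelin-KO minus WT, of log2(FPKM + 1) for the genes of each list that passed the filter on mean FPKM. Each circle is a gene, filled red at an unadjusted p-value under 0.05, and black bars are medians, 0.13 for the 10 genes and 0.21 for the endothelial identity markers. None of the 10 genes is filled.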

How the data were processed

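RNA of sorted tumor ECs was sequenced by the authors from stranded mRNA libraries in a 75-base single-end mode. TopHat and Bowtie2 mapped the reads to mm10, and Cufflinks 2.2.1 computed FPKM. Tool versions other than that of Cufflinks differ between the study's methods and the submitters' processing notes. How strand was used, which gene annotation and which filters were not given in the sources used here. The deposited values are FPKM with 3 decimals, 1 file per sample, and no samples were pooled in the files.

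The FPKM were used as deposited. Genes whose mean reached 1 FPKM were compared on log2(FPKM + 1), Apelin-KO minus WT, with limma 3.58.1 in R 4.3.3 (two-sided moderated test, no block, Benjamini-Hochberg adjustment over the 10964 genes tested). The study's methods name an unmoderated test, which was an alternative. Fold changes on this scale understate those of low genes. The 10 genes and all lists were chosen with earlier results of these data known. All 10 genes are described. Listed genes are named where the unadjusted p-value was under 0.05, where the mean reached 100 FPKM, or as direct partners. Markers of cell types named singly were chosen after their values were seen.

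Depth was estimated from 3742 genes with a single annotated transcript over 700 bases (GENCODE on GRCm38), assuming 200-base fragments. Of the low values, 67.2% to 70% were whole reads to within 0.1 (20% for evenly spread values), so no count test was run. The limma fit and the depth estimate were tested on simulated data, where the latter recovered 3 of 3 set depths. Other steps were run in Python 3.11.15 (pandas 2.3.3, matplotlib 3.10.9). Alternatives changed the pseudocount, the filter, the scaling, the variance, the weights, the block and the samples included.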

Additional observations from a re-analysis of the deposited data

How the results depend on the processing

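No gene of the 10 had an adjusted p-value under 0.05 under any of the 17 alternatives (lowest 0.246 by limma, for Robo4 without WT 3). Of 170 values of single genes, 158 kept their direction and 12 reversed. The filter, the variance settings and the replicate block left each log2 difference unchanged, so no direction could reverse there. The direction of Plvap, Robo4, Cd93 and Clec14a was the same under all 17. Their log2 differences fell to 0.0932, 0.108, 0.0291 and 0.428 after centring on the endothelial markers, from 0.29, 0.31, 0.23 and 0.63. With samples centred on the endothelial markers, Esm1, Insr and Emcn had log2 differences of -0.10, -0.0386 and -0.13, and the median over the 10 genes was -0.0714 in place of 0.13. With sample quality weights, Mcam had 0.0541. Leaving out each sample in turn, the log2 difference ranged from -0.0423 to 0.28 for Esm1, from -0.17 to 0.0233 for Unc5b, from -0.12 to 0.10 for Mcam, from 0.03 to 0.29 for Insr, from 0.12 to 0.36 for Cd93, from 0.19 to 0.38 for Plvap, from 0.23 to 0.43 for Robo4, from 0.39 to 0.90 for Clec14a, from -0.0073 to 0.16 for Emcn and from -0.18 to 0.19 for Apold1. The count of genes with an unadjusted p-value under 0.05, 0 as reported, was 2 (Plvap and Robo4) with a pseudocount of 5, without the filter, with a mean of at least 5 FPKM and with an intensity trend, where 10.03%, 8.89%, 9.23% and 10.01% of all genes passed. It was 1 (Plvap) with the replicate block, where 8.14% passed. Leaving out each sample, it ranged from 0 to 3. The count of genes with all Apelin-KO samples above all WT samples, 0 as reported, was 2 when samples were scaled to the same sum without genes above 5000 FPKM, against 6.29% of all genes, and ranged from 0 to 3 when a sample was left out, against 10.7% to 15.8% of all genes. The cause of these shifts was not tested. Samples with the same number did not deviate together in each pair (correlations of -0.14, 0.21 and -0.02 over 10964 genes), and the samples share only a number. At 9000000 to 10260000 estimated reads, counting error was 3.27% for Clec14a in its sample with the fewest reads. For Plvap it was 0.523% in its sample with the most. The coefficient of variation of Clec14a was 23.4% in WT and 35% in Apelin-KO samples. The part of counting error in the spread between samples was not tested.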
